A study of Mus musculus with 2 samples.

Results

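This section follows 10 genes of activin, bone morphogenetic protein (BMP) and growth differentiation factor (GDF) signaling through cells of denervated mouse muscle. They were the rows of the count matrices with the symbols *Inhba*, *Inhbb*, *Fst*, *Gdf10*, *Gdf15*, *Bmp4*, *Bmp5*, *Acvr2a*, *Bmpr2* and *Sostdc1*, 10 of the 32287 features listed. Rows were taken by symbol, but the genes were chosen with earlier results of these data known. Both groups were male C57BL/6J mice, 10 to 16 weeks old by the submitters' account, with bilateral peroneal nerve injury, and the paper's methods add that the mice of the antibody experiments carried the S100GFP transgene, in which the S100B promoter drives GFP in Schwann cells. One group received 2 μg of goat anti-mouse IgG in 10 μL in the tibialis anterior (TA) at injury and every 2 days after it, the other the same amount of an SPP1 neutralizing antibody (SPP1-nAb), and cells were taken 7 days after injury (7 dpi). The titles call the libraries S100GFP-positive while the protocol names sorted GFP+ and GFP- live cells, the protocol names TA and gastrocnemius muscles although injections went to TA, and each library pooled an unstated number of mice.

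Each group is 1 library, so no difference between them could be tested against the spread between animals. Levels are sums of unique molecular identifiers (UMIs, each standing for a captured transcript) over the cells of a class, as counts per 1000000 UMIs of that class (CPM), with exact Poisson 95% intervals. Pairs of values give IgG first and SPP1-nAb second. Ratios of SPP1-nAb to IgG have exact binomial 95% intervals, and both kinds of interval cover counting error only. The IgG library held 23779 barcodes with 97607674 UMIs and the SPP1-nAb library 25069 barcodes with 127719916 UMIs, of which 21047 and 22283 were kept after filters, and 163 barcode sequences occurred in both. Cells were put in 17 classes by at least 3 markers of a list, which covered 88.5% and 89.8% of the kept cells, and classes are called "-like" after their list. In all 17 classes the markers of the class's lineage were between 11.0 and 404 times higher per UMI than in cells of other lineages. The same markers placed the cells in their classes, so this difference was built in and does not test the classes. Clusters were named by the most common class among their gated cells, so they are not an independent check. Of the gated cells, 98.1% had the lineage of their cluster and 72.0% its class.

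Activins, BMPs and GDFs are secreted dimers of the transforming growth factor β family. Activins, BMPs and most GDFs bring together type I and type II receptor kinases, which then phosphorylate SMAD proteins. The known receptor of *Gdf15* is a different one, named below. Antagonists in the extracellular space bind the ligands before they reach a receptor: follistatin (*Fst*) traps activins and myostatin, and *Sostdc1* encodes a BMP antagonist that also acts on WNT signaling. In muscle this family is known for its control of fiber size, and BMP signaling is known to limit the atrophy of denervated muscle.

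All 10 genes could be placed by Ensembl identifier in GENCODE M39 on GRCm39. *Inhba* (ENSMUSG00000041324), the activin βA subunit, has 3 exons in its canonical transcript at chr13:16186373-16206206 on the plus strand, and *Fst* (ENSMUSG00000021765) has 6 exons on the same chromosome at chr13:114588731-114595521 on the minus strand. *Gdf15* (ENSMUSG00000038508), a stress-induced ligand, has 2 exons at chr8:71082038-71091537 on the minus strand. *Gdf10* (ENSMUSG00000021943) lies at chr14:33645273-33659940 on the plus strand and *Sostdc1* (ENSMUSG00000036169) at chr12:36364137-36368451 on the plus strand.

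The 250 bases before the start of transcription are printed for *Inhba* and *Gdf15*, the ligands on which the results for Schwann-like cells and for phagocytes turn. They are RefSeq promoters of GRCm38.p6, chr13:16011601-16011850 on the plus strand and chr8:70632096-70632345 on the minus strand. *Gdf15* has another entry, chr8:70632457-70632706 on the minus strand, before a different start. That entry holds no CACGTG, and the entry that holds one is printed. Capitals mark TATAAA in *Inhba* and CACGTG in *Gdf15*.
Inhba: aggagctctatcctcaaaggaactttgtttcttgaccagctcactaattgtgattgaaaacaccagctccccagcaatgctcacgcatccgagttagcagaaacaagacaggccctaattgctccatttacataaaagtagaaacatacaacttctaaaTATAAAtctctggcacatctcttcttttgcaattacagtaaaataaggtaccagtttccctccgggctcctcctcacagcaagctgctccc
Gdf15: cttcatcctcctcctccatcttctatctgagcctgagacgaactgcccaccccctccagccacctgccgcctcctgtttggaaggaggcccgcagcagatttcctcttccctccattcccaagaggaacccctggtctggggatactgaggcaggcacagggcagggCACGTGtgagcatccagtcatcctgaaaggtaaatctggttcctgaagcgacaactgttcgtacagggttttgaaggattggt
A match is a description of letters and not of a bound site. A member counted as having a motif when any of its entries held it. Of 6 motifs searched on both strands in the 8 members with a promoter entry, TATAAA was in *Inhba* alone against 12.4% of all 32851 promoters, and CACGTG was in *Gdf15* and *Bmp4* against 6.02%. CCAAT was in *Gdf15* (33.8% of all), GGCGCC in *Bmpr2* (9.59% of all), CAGAC in *Gdf10*, *Gdf15*, *Bmp5* and *Acvr2a* (42.2% of all), and TGANTCA in no member (6.75% of all). *Fst* and *Sostdc1* had no entry.

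The members led in different cell classes. *Inhba* was highest in Schwann-like cells, *Fst*, *Gdf10* and *Acvr2a* in fibro-adipogenic progenitor-like (FAP-like) cells, the mesenchymal progenitors of muscle, and *Bmp5* in tenocyte-like cells, by a small margin over FAP-like cells that held after IgG and not after SPP1-nAb. *Inhbb* and *Bmp4* were highest in satellite cell- or myoblast-like cells, *Bmpr2* in endothelial-like cells, *Gdf15* in lipid-handling phagocyte-like cells and *Sostdc1* in Schwann-like cells.

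**Figure D1:**
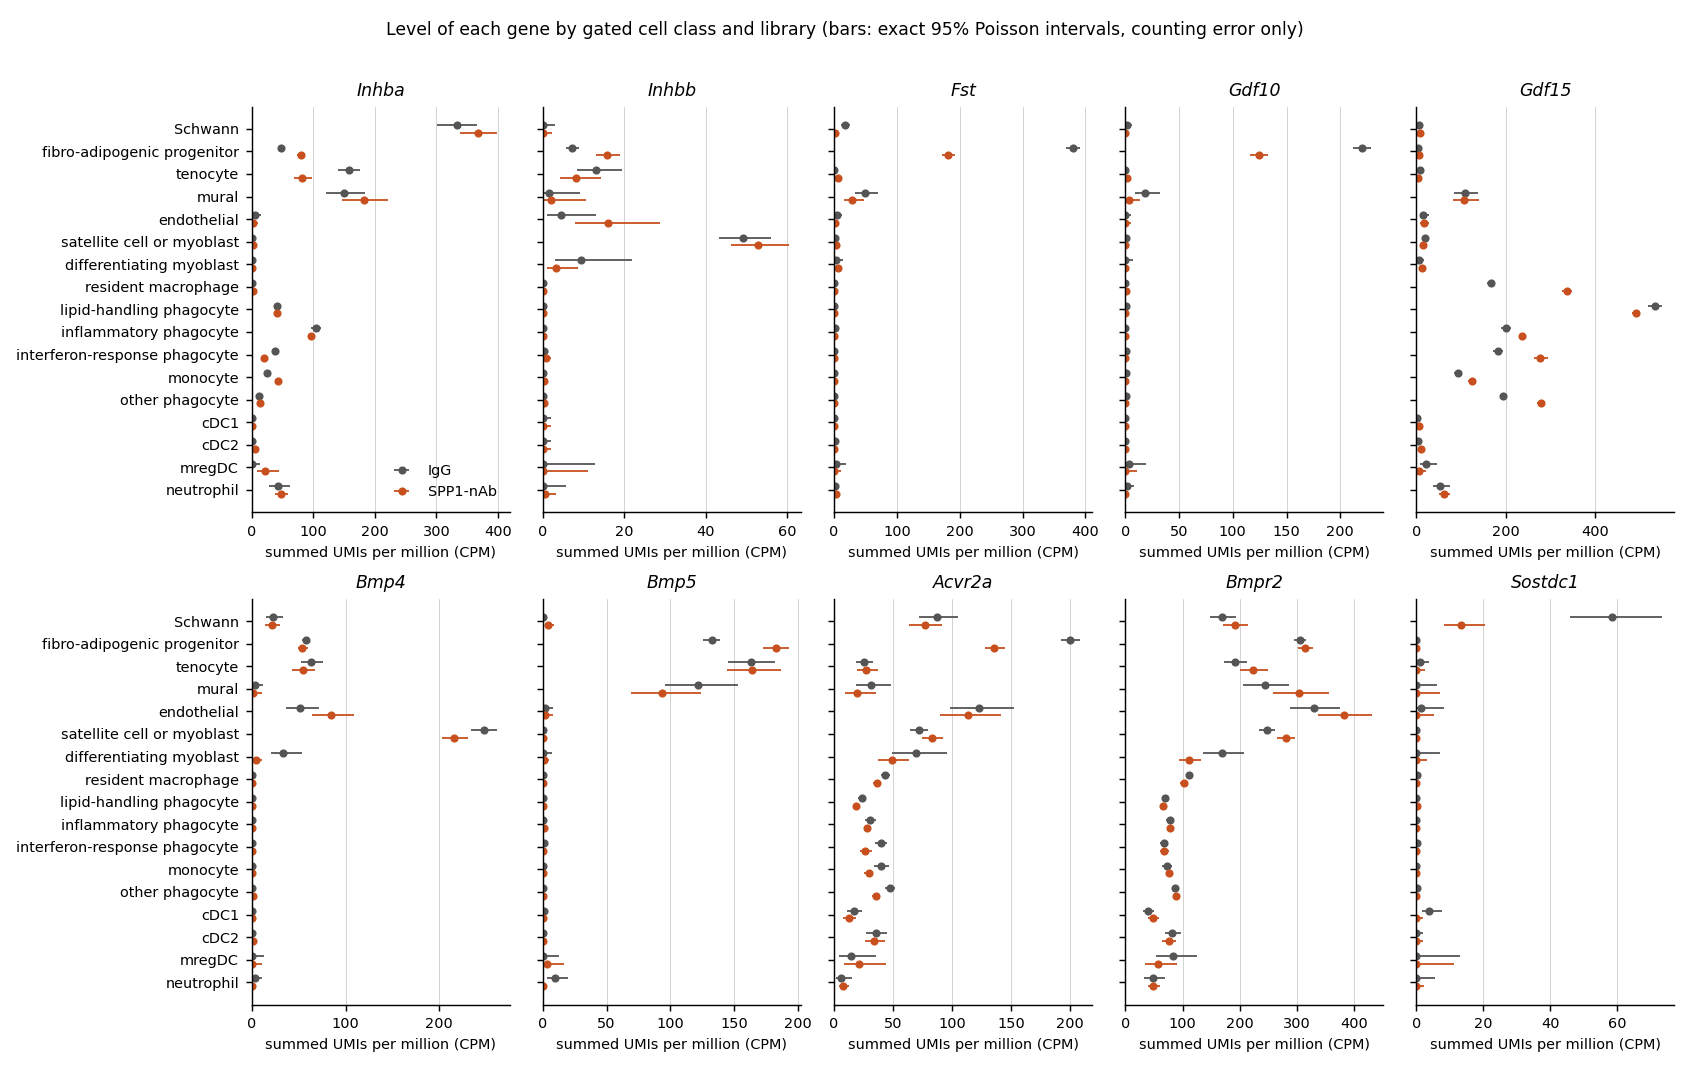
Level of each of the 10 genes (CPM, x axis, a scale of its own in each panel) in the 17 gated cell classes (y axis) of the IgG (gray) and SPP1-nAb (orange) libraries, with exact 95% Poisson intervals as bars. Fst and Gdf10 stand out in FAP-like cells alone, Gdf15 is spread over the phagocyte classes and found in mural-like cells too, and Bmpr2 is above 40 CPM in every class.

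*Inhba*, the activin A subunit, reached 333 CPM (302 to 367, 416 UMIs) in the 424 Schwann-like cells of the IgG library and 368 CPM (338 to 399, 574 UMIs) in the 455 of the SPP1-nAb library. The log2 ratio was 0.14 (-0.04 to 0.33), so no difference between the libraries was detectable at this depth. In both libraries the level stood above every other class. Mural-like cells (150 and 182 CPM) were next over both libraries together, but their range overlapped that of tenocyte-like cells, which were the higher of these after IgG. With each cell thinned to 2000 UMIs, 23.4% of Schwann-like cells had an *Inhba* UMI in each library (24.8% and 27.9% unthinned), against 0.0893% and 0.227% of satellite cell- or myoblast-like cells (0.113% and 0.524% unthinned). The median depths of these classes were close, 2782.5 and 3216 UMIs for Schwann-like cells and 2278 and 3120 for satellite cell- or myoblast-like cells, and thinning left out 95 and 61 Schwann-like cells. Of the Schwann-like cells, 66 and 73 were at the gate's limit of 3 markers.

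Within the Schwann-like class *Inhba* lay almost wholly in cluster 21, which had *Tinagl1* and *Il11* among its leading genes within the class. There it was at 685 CPM (619 to 756) in 194 IgG cells and 788 CPM (724 to 857) in 196 SPP1-nAb cells. In cluster 17, with *Ugt8a* and *Reln* among its leading genes, it was at 32.7 CPM (20.5 to 49.5) in 230 cells and 31.3 CPM (20.6 to 45.5) in 258 cells. The clusters were made without the 10 genes, and the contrast between the 2 clusters was of the same kind in both libraries.

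*Inhba* was also found in stromal cells, where the libraries differed. Tenocyte-like cells held 157 CPM (140 to 176, 300 UMIs) after IgG and 82.5 CPM (68.4 to 98.6, 120 UMIs) after SPP1-nAb, a log2 ratio of -0.93 (-1.25 to -0.62). These intervals did not overlap, and cluster 13, with 648 and 384 cells of the class (of 672 and 400), had a log2 ratio of -1.01 (-1.35 to -0.69). In mural-like cells the signal was in cluster 26, led by *Susd5*, *Pln* and *Asb2*, at 204 and 260 CPM with overlapping intervals. FAP-like cells went the other way, with 48.4 CPM (44.6 to 52.5, 588 UMIs) after IgG and 79.6 CPM (73.2 to 86.4, 577 UMIs) after SPP1-nAb (log2 ratio 0.72, 0.55 to 0.89). Neither of the clusters of this class compared below showed that higher level. Cluster 22 had too few SPP1-nAb cells to compare, with 51 *Inhba* UMIs in 190 IgG cells and 128 in 49 SPP1-nAb cells. Of these SPP1-nAb UMIs 96.1% were in 10 cells.

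Phagocytes carried *Inhba* in few cells with many UMIs each. Inflammatory phagocyte-like cells had 104 CPM (96.1 to 112) after IgG and 96.8 CPM (92.0 to 102) after SPP1-nAb, from 7.22% and 6.59% of thinned cells. In the IgG library 42.3% of these UMIs came from 10 of 1208 cells, so the counting intervals understate the error. Monocyte-like cells had 25.6 CPM after IgG and 42.6 CPM after SPP1-nAb (log2 ratio 0.74, 0.41 to 1.07), and interferon-response phagocyte-like cells 38.0 and 20.3 CPM (-0.91, -1.28 to -0.54), with 43.0% to 73.0% of the UMIs in 10 cells of each library and class. Among monocyte-like cells the higher level lay in cluster 4, led by *Pf4*, *Pdpn* and *Cxcl3*, where 3 UMIs in 71 IgG cells stood against 144 UMIs in 208 SPP1-nAb cells, 89.6% of them in 10 cells. Resident macrophage-like cells were close to background at 0.940 and 1.6 CPM.

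*Inhbb* encodes the βB subunit of activin B and was sparse, with 746 UMIs over the 17 classes of both libraries. Satellite cell- or myoblast-like cells, the muscle stem cells and their early progeny, had 49.3 CPM (43.3 to 56.0) after IgG and 53.0 CPM (46.3 to 60.4) after SPP1-nAb. The log2 ratio of 0.10 (-0.17 to 0.37) includes 0. FAP-like cells had 7.16 CPM (5.73 to 8.83, 87 UMIs) and 15.7 CPM (13 to 18.9, 114 UMIs), a log2 ratio of 1.14 (0.72 to 1.55). *Inhbb* was the member at least 2-fold higher after SPP1-nAb in FAP-like cells, where 3.19% of the 13813 features tested were. The log2 ratio was just under 2-fold with a gate margin of 2 (0.98), without the 10 cells with the most UMIs (0.99) and without clusters 22 and 23 of this class (0.93). Schwann-like cells had no *Inhbb* UMI in either library, which allows up to 2.40 and 1.92 CPM.

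*Bmp4*, a BMP ligand, shared its leading class with *Inhbb*. Satellite cell- or myoblast-like cells had 247 CPM (234 to 262, 1199 UMIs) after IgG and 216 CPM (202 to 231, 914 UMIs) after SPP1-nAb, a log2 ratio of -0.19 (-0.32 to -0.07). Within this class cluster 6, led by *Nppc* and *Chrdl2*, had 296 and 318 CPM (0.10, -0.03 to 0.24), while cluster 15, led by *Stmn1*, *Ttn* and *Prune2*, had 122 and 85.4 CPM (-0.51, -0.85 to -0.17). The value of the class therefore did not describe its larger cluster. The gate's limit of 3 markers held 536 of the 1774 IgG cells and 290 of the 1145 SPP1-nAb cells of this class.

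Cells further along the muscle lineage had less *Bmp4*. Differentiating myoblast-like cells had 18 UMIs in 72 IgG cells (33.9 CPM, 20.1 to 53.6) and 6 UMIs in 98 SPP1-nAb cells (4.99 CPM, 1.83 to 10.9). The log2 ratio was -2.76 (-4.39 to -1.37), in a class where 7.29% of 7425 features were at least 2-fold lower, and 83.3% of the IgG UMIs came from 10 cells. Endothelial-like cells had 51.9 and 84.5 CPM (0.70, 0.07 to 1.35), from 35 and 58 UMIs. In cluster 14, with 418 and 340 of these cells, 10 cells held 52.9% and 51.7% of the UMIs. A single SPP1-nAb cell had 12 of them, so the interval is too narrow. Tenocyte-like cells at 63.5 and 54.3 CPM and FAP-like cells at 57.4 and 54.1 CPM did not differ beyond their intervals, and in phagocytes *Bmp4* stayed below 1 CPM.

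*Bmp5* was confined, among classes with at least 20 UMIs, to 3 mesenchymal classes. Tenocyte-like cells had 163 CPM (146 to 182) after IgG and 164 CPM (144 to 186) after SPP1-nAb (0.01, -0.24 to 0.26), and mural-like cells 122 and 93.8 CPM (-0.38, -0.93 to 0.16). In mural-like cells it lay in cluster 27, led by *Ifitm1*, *Flt1* and *Rgs16*, at 320 and 215 CPM. FAP-like cells held 76.9% and 74.9% of all its UMIs in kept cells, at 132 CPM (126 to 139) after IgG and 183 CPM (173 to 193) after SPP1-nAb.

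*Gdf10*, which encodes BMP3b, was almost private to FAP-like cells, which held 95.7% of its UMIs after IgG and 94.0% after SPP1-nAb. The level was 220 CPM (212 to 228, 2673 UMIs) after IgG and 124 CPM (116 to 133, 901 UMIs) after SPP1-nAb, a log2 ratio of -0.82 (-0.93 to -0.71). No other class reached 20 UMIs, with mural-like cells next at 11 and 2 UMIs.

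*Fst* was the antagonist with the most UMIs among the members and lay in the same cells, with 95.1% and 90.2% of its UMIs in FAP-like cells. It was at 380 CPM (369 to 391, 4616 UMIs) in 2271 IgG cells and 182 CPM (172 to 192, 1318 UMIs) in 914 SPP1-nAb cells. The log2 ratio was -1.06 (-1.15 to -0.97), and 4.99% of the features of this class were at least 2-fold lower. With cells thinned to 2000 UMIs, 38.1% and 21.9% of FAP-like cells had an *Fst* UMI (52.2% and 42.2% unthinned). In satellite cell- or myoblast-like cells, in comparison, the thinned shares were 0.179% and 0.567% (0.564% and 0.786% unthinned), at median depths of 2278 and 3120 UMIs against 4935 and 8000.5 in FAP-like cells.

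The FAP-like class was made up of different clusters in the 2 libraries, so its ratios are read by cluster. Cluster 9, led within the class by *Cxcl13*, *Inmt* and *C7*, held 1388 IgG and 283 SPP1-nAb cells, and cluster 12, led by *Tnc*, *Ltbp2* and *Postn*, held 428 and 560. Cluster 22 had the nerve sheath marker *Ptch1* and no FAP marker among its 10 leading genes against all cells (190 and 49 cells). Cluster 23 was almost wholly of the IgG library (241 and 3 cells) and had no FAP marker among its 10 leading genes either. Neither had 50 cells in each library, so neither was compared. A cluster mostly of 1 library may be that library and not a kind of cell.

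Read this way, *Fst* differed in opposite directions. In cluster 9 it was at 596 CPM (578 to 614) after IgG and 355 CPM (330 to 381) after SPP1-nAb, a log2 ratio of -0.75 (-0.86 to -0.63). In cluster 12 it was at 87.3 CPM (77.5 to 98.0) and 114 CPM (105 to 124), a log2 ratio of 0.39 (0.18 to 0.60). The level in cluster 9 was above that in cluster 12 in both libraries.

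*Gdf10* had the same order between clusters, at 358 CPM (344 to 372) after IgG and 294 CPM (272 to 318) after SPP1-nAb for cluster 9, and 50.8 CPM (43.4 to 59.2) and 56.3 CPM (49.8 to 63.4) for cluster 12. Its log2 ratios were -0.28 (-0.41 to -0.15) and 0.15 (-0.14 to 0.43), both smaller in size than that of the class. *Inhba* went the other way between the clusters, with 9.56 and 10.3 CPM in cluster 9 and 101 and 87.5 CPM in cluster 12. Neither cluster showed its higher class level after SPP1-nAb (log2 ratios 0.11, -0.65 to 0.83, and -0.20, -0.41 to 0.01), while the class without clusters 22 and 23 was still at 0.72. That class value pools clusters of unlike *Inhba* level whose shares differed between the libraries. Cluster 9 held 61.1% and 31.0% of the FAP-like cells, and cluster 12 held 18.8% and 61.3%. *Inhbb* likewise had 17.5 and 18.8 CPM in cluster 12 (0.11, -0.38 to 0.61), and in cluster 9 it had 24 and 16 UMIs (1.11, 0.10 to 2.09). *Bmp5* was at 89.2 and 127 CPM in cluster 9 (0.51, 0.30 to 0.72) and at 230 and 211 CPM in cluster 12 (-0.12, -0.26 to 0.02).

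**Figure D2:**
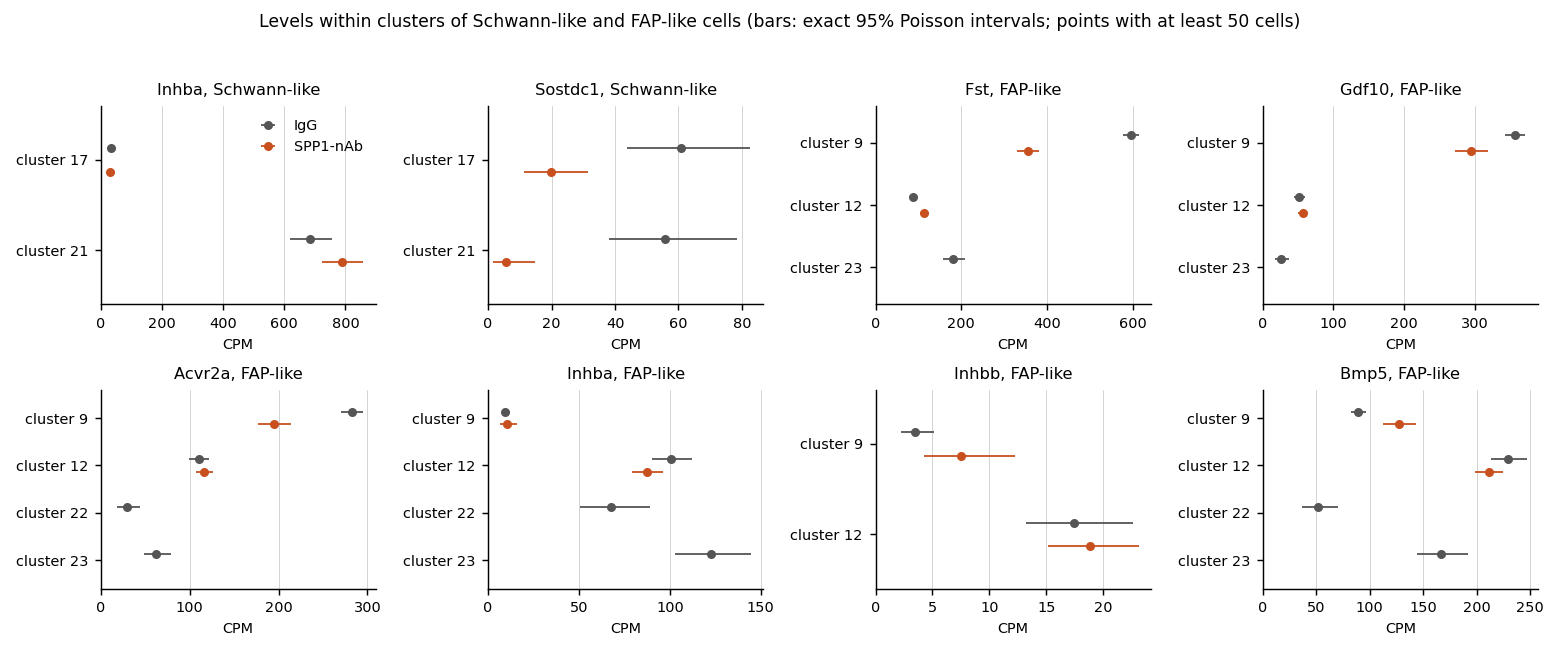
Levels (CPM, x axis) of Inhba and Sostdc1 in 2 clusters of Schwann-like cells and of 6 genes in clusters of FAP-like cells, for the IgG (gray) and SPP1-nAb (orange) libraries, with exact 95% Poisson intervals. Points stand for at least 50 cells, and clusters with under 20 UMIs of a gene are not drawn. Inhba lies in Schwann-like cluster 21 in both libraries, Fst, Gdf10 and Acvr2a are highest in FAP-like cluster 9, and Inhba and Bmp5 are lower in cluster 9 than in cluster 12.

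Among FAP-like cells the ligand *Inhba* was found less often with a UMI of its antagonist *Fst* than without. At 2000 UMIs a cell, *Inhba* was found in 22 of 815 *Fst*-positive cells of the IgG library (2.70%) and in 8.60% of *Fst*-negative cells, and in 5 of 193 (2.59%) and 10.4% of the SPP1-nAb library. *Gdf10*, in contrast, was found in 33.0% of *Fst*-positive and 15.2% of *Fst*-negative IgG cells, and in 20.7% and 11.8% of SPP1-nAb cells. The order of these shares was the same in both libraries, and they describe cells of 1 library each. A cell without a UMI at this depth may still express the gene, and the shares pool clusters of unlike *Fst* and *Inhba* level. Whether *Inhba* and *Fst* share cells within a cluster was not tested.

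*Fst* in Schwann-like cells was scarce, with 21 UMIs in IgG (16.8 CPM, 10.4 to 25.7) and 2 after SPP1-nAb (1.28 CPM, 0.155 to 4.63), a log2 ratio of -3.71 (-6.85 to -1.68). The IgG UMIs lay in cluster 21, with 19 UMIs in 11 of its 194 cells, and cluster 21 of the SPP1-nAb library had 1 UMI. Free RNA was estimated at 1.49% and 2.60% of the UMIs of Schwann-like cells. With that free RNA subtracted the log2 ratio was -4.09.

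*Sostdc1* was the rarest member and the one most bound to Schwann-like cells, which held 76.0% and 75% of its UMIs. The IgG library had 73 UMIs in 30 of 424 Schwann-like cells (58.5 CPM, 45.8 to 73.5) and the SPP1-nAb library 21 UMIs in 8 of 455 cells (13.5 CPM, 8.33 to 20.6). The log2 ratio was -2.12 (-2.89 to -1.40), and both *Sostdc1* and *Fst* were among the 2.02% of the 9548 features tested in Schwann-like cells that were at least 2-fold lower. The UMIs were concentrated, with 69.9% of the IgG UMIs in 10 cells and 13 of the 21 SPP1-nAb UMIs in 1 cell, so the interval is too narrow.

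Unlike *Inhba*, *Sostdc1* was present in both Schwann-like clusters. It was at 60.9 CPM (41 UMIs) after IgG and 19.7 CPM (17 UMIs) after SPP1-nAb in cluster 17, and at 55.6 CPM (32 UMIs) and 5.77 CPM (4 UMIs) in cluster 21. Both clusters were thus lower after SPP1-nAb. Of the thinned cells, 3.65% and 1.52% had a *Sostdc1* UMI (7.08% and 1.76% unthinned), and FAP-like cells had none of any depth. No thinned cell of either library held both *Inhba* and *Sostdc1*, of 77 and 92 cells with *Inhba* and 12 and 6 with *Sostdc1*. Among the thinned cells without *Inhba*, only 4.76% and 1.99% had *Sostdc1*. These counts are too small to show whether the 2 genes lie in different cells.

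*Gdf15*, whose known receptor is the brain stem receptor GFRAL, was highest in phagocytes but not confined to them. Lipid-handling phagocyte-like cells, marked by *Gpnmb*, *Fabp5* and *Trem2*, had 534 CPM (518 to 549, 4536 UMIs) after IgG and 490 CPM (481 to 499, 11254 UMIs) after SPP1-nAb, and held 37.8% and 43.6% of its UMIs in kept cells. The log2 ratio was -0.12 (-0.17 to -0.07). Below them the resident macrophage-like, other phagocyte-like, inflammatory and interferon-response phagocyte-like classes formed a group whose ranges over the libraries overlapped, from 166 to 336 CPM. Monocyte-like cells (114 CPM over both libraries) and mural-like cells (108 CPM) came after this group, with overlapping ranges. The gene for the receptor, *Gfral*, had no UMI in any class.

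Resident macrophage-like cells differed between the libraries. They had 166 CPM (159 to 173, 2116 UMIs) after IgG and 336 CPM (326 to 347, 3998 UMIs) after SPP1-nAb, a log2 ratio of 1.02 (0.94 to 1.10), where 2.49% of the 12739 features of the class were at least 2-fold higher. Thinned shares of cells with a UMI were 17.5% and 27.0% (23.3% and 37.5% unthinned), against 0.747% and 0.794% of FAP-like cells (1.67% and 3.83% unthinned), which are deeper. The UMIs were spread widely, with 7.04% and 9.08% of them in 10 cells.

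The higher *Gdf15* level of the SPP1-nAb library was present in all 5 clusters with at least 50 resident macrophage-like cells in each library. In cluster 0, led by *Bmp2*, *Gpr34* and *Pmp22*, it was at 179 CPM (170 to 188) and 393 CPM (378 to 408), a log2 ratio of 1.14 (1.04 to 1.23). In cluster 2, led by *Tnip3* and class II genes, it was at 212 and 410 CPM (0.95, 0.75 to 1.16), and in cluster 16, led by *Cd209d*, *Cd209g* and *Cd209f*, at 123 and 303 CPM (1.31, 1.04 to 1.57). Clusters 11 and 4 had log2 ratios of 1.61 (1.18 to 2.06) and 1.41 (0.30 to 2.77), the latter from 7 and 81 UMIs.

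Lipid-handling phagocyte-like cells went the other way over the whole class (-0.12). In the remaining phagocyte classes the differences over the whole class were in the same direction as in resident macrophage-like cells, and smaller. The log2 ratios were 0.60 (0.48 to 0.73) in interferon-response, 0.51 (0.44 to 0.59) in other, 0.42 (0.24 to 0.60) in monocyte-like and 0.24 (0.15 to 0.33) in inflammatory phagocyte-like cells. Within these classes some clusters differed as much as resident macrophage-like cells did. Among other phagocyte-like cells cluster 4 was at 34.6 and 160 CPM (2.21, 1.56 to 2.93, from 21 and 216 UMIs), and clusters 0 and 2 were both at a log2 ratio of 0.94. Among inflammatory phagocyte-like cells clusters 7, 3 and 2 had log2 ratios of 1.11, 0.94 and 0.90, and clusters 4 and 5 had -0.01 and -0.04 with intervals that include 0.

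In lipid-handling phagocyte-like cells cluster 1, led by *Gpnmb*, *Nav2* and *Syngr1*, was lower after SPP1-nAb at 675 and 560 CPM (-0.27, -0.33 to -0.21), while cluster 4, led by *Cxcl3*, *Vcan* and *Nrg1*, was higher at 233 and 324 CPM (0.48, 0.16 to 0.80). In cDC2-like cells *Gdf15* had 8 and 20 UMIs (4.47 and 10.3 CPM, log2 ratio 1.20, -0.04 to 2.60), in a class where 2.77% of 8415 features were at least 2-fold higher, and its interval includes 0. Free RNA was estimated at 3.00% and 1.42% of the UMIs of that class, and subtracting it left almost nothing of the IgG level.

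**Figure D3:**
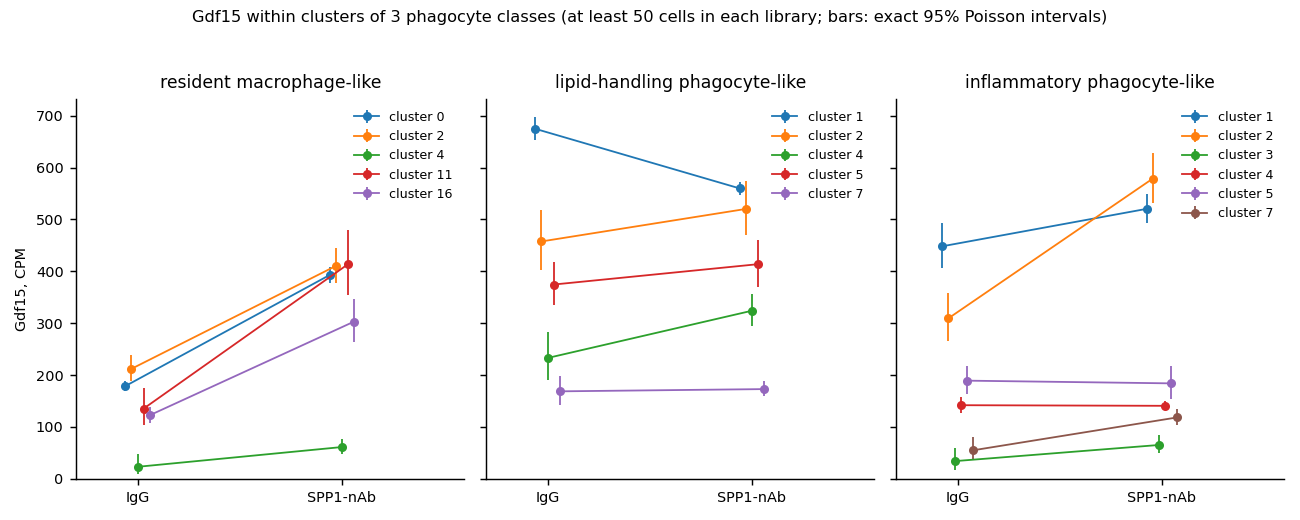
Gdf15 (CPM, y axis) in the IgG and SPP1-nAb libraries within each cluster that held at least 50 cells of the class in each library, for resident macrophage-like, lipid-handling and inflammatory phagocyte-like cells, with exact 95% Poisson intervals. All 5 lines of the resident macrophage-like cells go up, whereas cluster 1 of the lipid-handling cells goes down from 675 to 560 CPM.

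Both receptors were found in most classes. *Acvr2a*, the type II receptor that binds activins and several BMPs, had at least 20 UMIs in 15 classes, and *Bmpr2*, the type II receptor of BMPs, in all 17. *Acvr2a* was highest in FAP-like cells at 200 CPM (192 to 208) after IgG and 136 CPM (128 to 145) after SPP1-nAb, a log2 ratio of -0.56 (-0.67 to -0.45). Endothelial-like cells at 123 and 114 CPM, Schwann-like cells at 87.3 and 76.9 CPM, and satellite cell- or myoblast-like cells at 71.8 and 83.0 CPM did not differ between the libraries beyond their intervals. In FAP-like cells *Acvr2a* followed the clusters of *Fst*, with 283 CPM (270 to 295) and 195 CPM (176 to 214) in cluster 9 and 110 and 117 CPM in cluster 12 (0.08, -0.11 to 0.28). It was found in 37.5% of *Fst*-positive and 20.7% of *Fst*-negative thinned IgG cells, and in 31.1% and 19.6% of SPP1-nAb cells.

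In phagocytes *Acvr2a* was lower in the SPP1-nAb library by small amounts. The log2 ratios were -0.57 (-0.91 to -0.24) in interferon-response, -0.44 (-0.74 to -0.14) in monocyte-like, -0.41 (-0.59 to -0.23) in other, -0.31 (-0.55 to -0.06) in lipid-handling and -0.26 (-0.44 to -0.07) in resident macrophage-like cells. In inflammatory phagocyte-like cells the interval included 0 (-0.14, -0.39 to 0.11). None of these was 2-fold.

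*Bmpr2* was highest in endothelial-like cells, at 329 CPM (288 to 376) after IgG and 382 CPM (337 to 431) after SPP1-nAb, followed by FAP-like cells at 305 CPM (296 to 315) and 314 CPM (302 to 328) and mural-like cells at 244 and 304 CPM. The ranges of mural-like cells and of satellite cell- or myoblast-like cells (248 and 280 CPM) overlapped. Phagocytes were between 65.3 and 112 CPM, and cDC1-like and neutrophil-like cells were lowest at 40.3 to 48.9 CPM. Endothelial-like and FAP-like cells did not differ between libraries beyond their intervals (0.21, -0.05 to 0.48, and 0.04, -0.03 to 0.12). Satellite cell- or myoblast-like cells were slightly higher after SPP1-nAb (0.18, 0.06 to 0.30), and differentiating myoblast-like cells were lower, at 169 and 111 CPM (-0.60, -1 to -0.20).

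**Figure D4:**
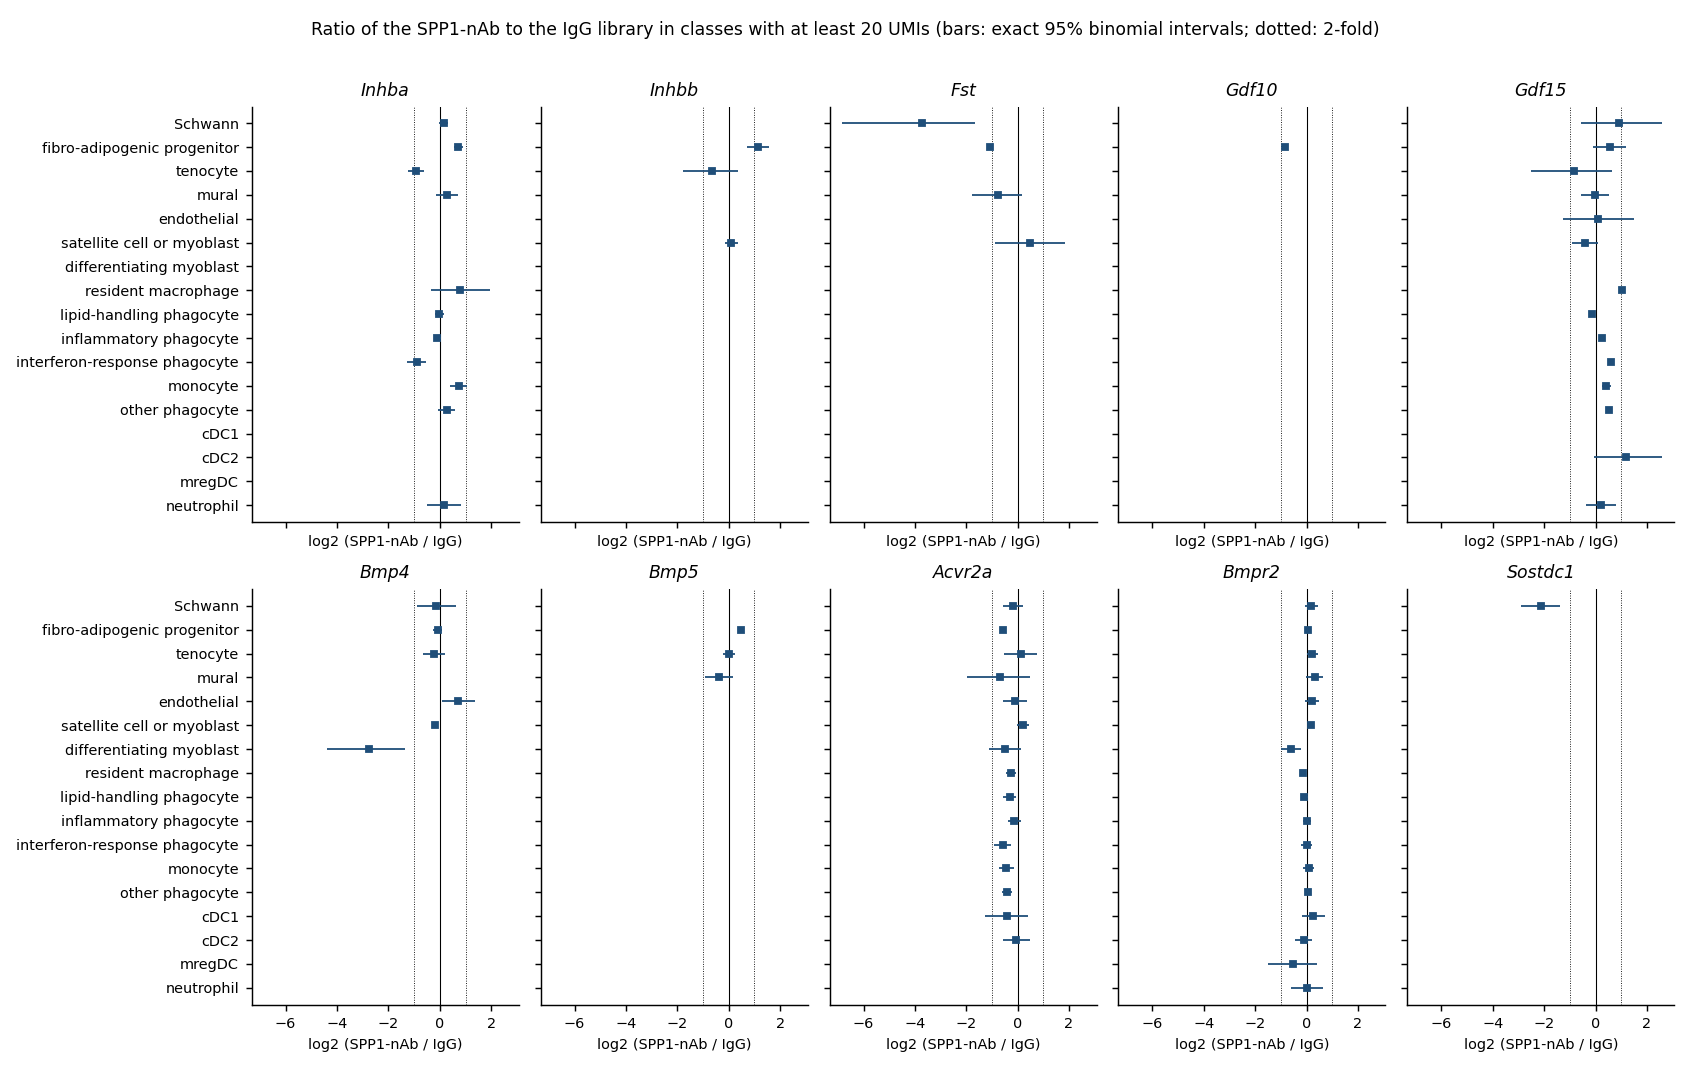
The log2 ratio of the SPP1-nAb to the IgG library (x axis) for each of the 10 genes in classes with at least 20 UMIs over both libraries (y axis), with exact 95% binomial intervals, a line at 0 and dotted lines at 2-fold. Bmpr2 and Acvr2a stay within 2-fold in all classes, Gdf15 is at 1.02 in resident macrophage-like cells, and Fst, Sostdc1 and Bmp4 have points below -1.

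Over the members there were 75 pairs of gene and class with at least 20 UMIs. At least 2-fold higher after SPP1-nAb were 3 pairs and lower 4, against 2.89% and 2.76% of the 162971 pairs over all features, so the members' shares (4% and 5.33%) were near the background. The 3 were *Gdf15* in resident macrophage-like and cDC2-like cells and *Inhbb* in FAP-like cells, and the 4 were *Fst* in FAP-like and Schwann-like cells, *Sostdc1* in Schwann-like cells and *Bmp4* in differentiating myoblast-like cells. The call of *Gdf15* in resident macrophage-like cells lay at the threshold, with log2 ratios of 0.92 without doublet removal and 0.99 without the 10 cells with the most UMIs. In cDC2-like cells it was at 0.512 with no gate margin and 0.585 with a margin of 2. In FAP-like cells, where 9 members had 20 UMIs, their median log2 ratio was 0.04 against -0.03 over all features, and in Schwann-like cells, with 7 members, it was -0.14 against 0.00.

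The other genes of the pathway, 54 on a list, had 354 such pairs, of which 12 (3.39%) were at least 2-fold higher and 11 (3.11%) lower, near the 2.89% and 2.76% over all features. The values of single genes below are read against that background. In FAP-like cells they are given by cluster too, and unlike the members these genes were free to enter the clustering.

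Among ligands, *Bmp3* and *Bmp7* were lower after SPP1-nAb in FAP-like cells, at 10.3 and 2.62 CPM (-1.97, -2.75 to -1.27) and at 11.4 and 4 CPM (-1.52, -2.15 to -0.93). In cluster 9 their log2 ratios were -1.09 (-1.89 to -0.37) and -1.49 (-2.87 to -0.37), while cluster 12 had no *Bmp3* UMI and 12 and 7 UMIs of *Bmp7*. *Gdf11*, the closest relative of myostatin, was at 2.55 and 5.79 CPM in FAP-like cells, with log2 ratios of 1.56 (0.17 to 2.94) in cluster 9 and 1.17 (0.06 to 2.43) in cluster 12. In satellite cell- or myoblast-like cells *Gdf11* was at 2.89 and 6.86 CPM and *Gdf6* at 2.68 and 5.91 CPM, and in mural-like cells *Gdf11* was at 35.8 and 15.3 CPM. *Bmp2* was at 36.5 and 16.7 CPM in other phagocyte-like cells (-1.13, -1.37 to -0.89), and *Gdf3* at 15.8 and 6.83 CPM in interferon-response phagocyte-like and 3.84 and 7.85 CPM in monocyte-like cells. *Bmp6* was the leading other ligand of endothelial-like cells (218 and 188 CPM) and of satellite cell- or myoblast-like cells (174 and 193 CPM).

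Among receptors and co-receptors *Bmpr1a*, a type I receptor of BMPs, led in Schwann-like cells at 209 and 186 CPM, *Bmpr1b* in tenocyte-like cells at 148 and 140 CPM, and endoglin (*Eng*) in endothelial-like cells at 364 and 376 CPM. *Bmpr1b* was at 7.82 and 19.3 CPM in FAP-like cells (1.30, 0.92 to 1.70), with log2 ratios of -0.44 (-1.48 to 0.48) in cluster 9 and 1.08 (0.56 to 1.62) in cluster 12. *Bmpr1a* was lower in resident macrophage-like cells (4.15 and 2.02 CPM), *Rgma* lower in differentiating myoblast-like cells (45.2 and 15 CPM) and *Bambi* higher in interferon-response phagocyte-like cells (11.8 and 24.1 CPM).

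Some antagonists other than *Fst* and *Sostdc1* were at least 2-fold different in a class. Over all features 2.89% of the pairs of gene and class were higher and 2.76% lower. *Fstl1*, the follistatin-like gene that led the antagonists of FAP-like cells at 1706 and 1736 CPM, was lower in differentiating myoblast-like cells (130 and 43.2 CPM) and mregDC-like cells (112 and 45.4 CPM). It was higher in inflammatory phagocyte-like cells (1.6 and 4.95 CPM), as was *Nbl1* from 2 and 22 UMIs, where free RNA was estimated at 1.25% and 2.20% of UMIs. *Bmper* was higher in resident macrophage-like (0.705 and 2.10 CPM) and other phagocyte-like cells (0.716 and 2 CPM), with free RNA at 1.66% and 2.80% and at 1.68% and 3.14%. The part of free RNA in these low values was not tested. *Chrdl1* in mural-like cells had an interval that includes 0 (1.08, -0.11 to 2.36).

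Of the SMAD genes that carry the signal into the nucleus, *Smad1* led in endothelial-like cells at 229 and 224 CPM and *Smad4* in Schwann-like cells at 204 and 220 CPM, and none was 2-fold different in a class with 20 UMIs. Among genes known to respond to BMPs, *Id3* was at 1093 and 813 CPM in satellite cell- or myoblast-like cells and was lower in cDC2-like cells (36.3 and 12.9 CPM). *Id1* was lower in interferon-response phagocyte-like cells (14.1 and 6.15 CPM), and *Id4* higher in mural-like cells (84.6 and 170 CPM, 1.01, 0.50 to 1.53).

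Genes whose levels across the 17 classes of both libraries were most like each member were looked for among 14684 genes, by Pearson's r of log2(CPM + 1) over 34 points that share libraries and depth. For *Fst* the closest gene was *Gdf10* (r = 0.89), and for *Gdf10* it was *Adamtsl2* (r = 0.94). *Bmp5* was closest to *Shox2* (r = 0.98), *Inhbb* to *F2r* (r = 0.93), *Bmp4* to *Cyp2d22* (r = 0.94), *Bmpr2* to *Wwc2* (r = 0.95), *Acvr2a* to *Rbm6* (r = 0.87) and *Gdf15* to *C1qb* (r = 0.87). *Inhba* had the weakest match, *Macrod2* (r = 0.70). For *Sostdc1*, with 108 UMIs, *Igsf11* was among the 3 closest (r = 0.94).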

How the data were processed

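For each library the authors deposited CellRanger's matrix of raw UMI counts, without normalization. The submitters' notes name version 8.0.0 and the file headers 9.0.1, and the build is GRCm39 with a reporter sequence. Removal of free RNA and integration, described in the paper's methods, are not in these counts.

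Barcodes with more than 200 genes and under 10% mitochondrial UMIs were kept, and the 10% with the highest doublet score (share of simulated doublets, 2 per barcode, among 50 neighbors) were removed per library. A cell joined a class when at least 3 of 10 markers of a list had a UMI and the share of that list detected was 1.5 times that of any other; phagocytes and myogenic cells were split by further lists. Of 210 markers 1 was absent. Classes with under 50 cells in a library were left out. Raw counts were summed per class and library. With 1 library per group no test was made; ratios need 20 UMIs, and a count of 0 was given a limit of 3 counts. Shares of cells with a UMI were compared after thinning each cell to 2000 UMIs. Free RNA was estimated from the lowest level, relative to the library, among marker lists of other lineages. Clusters came from the Leiden algorithm (leidenalg 0.10.2, resolution 1) on 30 components of 2000 variable genes without the members and without integration. Python 3.11.15, numpy 2.4.6, scipy 1.17.1, pandas 2.3.3, scikit-learn 1.9.0 and matplotlib 3.10.9 were used, and the steps were tested on simulated data.

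Named genes were all 10 members, pathway genes at least 2-fold different in a class with an interval without 0, others highest for their role in a member's leading class (not all are printed), and the 3 genes most like each member. The members and lists were chosen with earlier results of these data known. Each library is 1 sample, so the SPP1-nAb and IgG groups cannot be told apart from their libraries.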

Additional observations from a re-analysis of the deposited data

Results flagged for a closer look

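Several members had ratios of SPP1-nAb to IgG that went opposite ways in different cell classes, each with a counting interval without 0. In every case below the difference between classes was not tested, since each group is 1 library.

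The log2 ratio of *Inhba* was 0.74 in monocyte-like cells and -0.93 in tenocyte-like cells. That of *Gdf15* was 1.02 in resident macrophage-like cells and -0.12 in lipid-handling phagocyte-like cells. *Bmp4* was at 0.70 in endothelial-like and -2.76 in differentiating myoblast-like cells. Its UMIs were few and concentrated in both classes, with 12 in 1 endothelial-like SPP1-nAb cell, so these intervals are too narrow. *Bmpr2* was at 0.18 in satellite cell- or myoblast-like and -0.60 in differentiating myoblast-like cells. Within FAP-like cells *Fst* was at -0.75 in cluster 9 and 0.39 in cluster 12.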

How the results depend on the processing

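Of 271 alternative log2 ratios 249 had the sign of the reported value and 22 the other sign, 8 of these for values that stayed close to the reported one, and 2 were of ratios reported as at least 2-fold. No paired analysis was possible because each group is 1 library, and for the same reason leaving out a replicate was not possible. The values within clusters, without the 10 cells with the most UMIs and without clusters 22 and 23 came from alternatives chosen after seeing the data. Where no construction is named the cause was not tested. The leading class of all 10 members was compared under 12 alternatives and kept, except that *Bmp5* led in mural-like cells with under 5% mitochondrial UMIs.

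With a gate of at least 4 markers *Inhba* in Schwann-like cells was at -0.13 and *Bmp4* in satellite cell- or myoblast-like cells at -0.33, and with a gate of 2 *Gdf15* in lipid-handling phagocyte-like cells was at -0.054 and *Bmp4* in differentiating myoblast-like cells at -1.04. With cells thinned to 2000 UMIs, which leaves out shallower cells, *Fst* in FAP-like cells was at -1.19, *Bmp4* in satellite cell- or myoblast-like cells at 0.046 and *Bmpr2* in endothelial-like cells at -0.19. With classes taken from clusters *Bmp4* in satellite cell- or myoblast-like cells was at -0.38, *Gdf15* in resident macrophage-like cells at 1.20 and *Gdf15* in cDC2-like cells turned to -0.061. With free RNA subtracted *Gdf15* in cDC2-like cells was at 6.66. The subtraction left almost nothing of its IgG level, so that value does not measure a difference. Without doublet removal *Gdf15* in resident macrophage-like cells was at 0.92, and with 20% of barcodes removed *Inhba* in FAP-like cells was at 0.44.

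In FAP-like cluster 9 *Fst* was at -0.75, *Gdf10* at -0.28 and *Inhba* at 0.11. In cluster 12 *Fst* turned to 0.39, with *Gdf10* at 0.15, *Acvr2a* at 0.082, *Inhba* at -0.20 and *Inhbb* at 0.11. Without clusters 22 and 23 *Fst* was at -1.20, *Gdf10* at -1.01 and *Acvr2a* at -0.71, and *Inhba* stayed at 0.72. Without the 10 cells with the most UMIs *Fst* was at -1.19, *Gdf10* at -1.09 and *Inhba* at 0.40 in FAP-like cells, and *Gdf15* at -0.054 in lipid-handling phagocyte-like cells. In Schwann-like cells *Inhba* was at -0.064 in cluster 17 and *Sostdc1* at -3.27 in cluster 21. *Bmp4* was at 0.10 in cluster 6 and -0.51 in cluster 15. *Gdf15* was at -0.27, 0.19, 0.48, 0.14 and 0.037 in clusters 1, 2, 4, 5 and 7 of lipid-handling phagocyte-like cells, and at 1.14, 1.41, 1.61 and 1.31 in clusters 0, 4, 11 and 16 of resident macrophage-like cells.

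Over all features 9209 pairs were at least 2-fold different, 3435 with a minimum of 50 UMIs and 89970 with 1 UMI, since the minimum sets how many are compared.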

Other observations

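In satellite cell- or myoblast-like cells *Bmpr2* was highest in cluster 19, led by *Neat1*, *Kirrel3* and *Taco1*, at 715 CPM (556 to 905) in 65 IgG cells and 745 CPM (601 to 912) in 79 SPP1-nAb cells, against 243 and 307 CPM in cluster 6. Of the 525 kept cells of cluster 19 only 145 were gated as myogenic. Its 10 leading genes against all cells held no myogenic gate marker, so what kind of cell it holds is unsure.

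*Inhba* in lipid-handling phagocyte-like cells of cluster 4 was at 262 CPM (217 to 314) in 74 IgG cells and 146 CPM (126 to 168) in 202 SPP1-nAb cells, with 95.7% and 84.8% of the UMIs in 10 cells.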
